A study of Arabidopsis thaliana with 24 samples.

Results

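The nuclear genes for photosystem and light-harvesting proteins were followed across nitrate supply, day and genotype in Arabidopsis shoots. They were taken by locus identifier: 42 of the 28775 genes in the table, among them LHCA1 (AT3G54890), LHCB1.1 (AT1G29920), LHCB1.3 (AT1G29930), LHCB1.4 (AT2G34430), LHCB1.5 (AT2G34420), LHCB4.3 (AT2G40100), PSAN (AT5G64040), PSBQ2 (AT4G05180) and PSBS (AT1G44575). The 42 genes comprised 6 genes of the photosystem I antenna, 9 of the major light-harvesting complex II, 5 of the minor antenna, 12 of photosystem I subunits, 5 of the oxygen-evolving complex and 5 of other photosystem II subunits. The shoots came from the wild type Col-0 and from nrt1.13, a SAIL T-DNA line interrupted in an exon of NRT1.13, which belongs to the NRT1/PTR family of transporters. A single insertion line stood for the mutant. Plants of both genotypes were raised in hydroponic culture, either on 0.2 mM (low) or on 2 mM (normal) KNO3, KCl being added to the low supply so that potassium was kept, and shoots were taken at 16 or 25 d. This gave 8 groups of 3 libraries of a single plant each, made from poly(A) RNA: each genotype at each supply and day. Light and dark periods were of equal length, and the hour of harvest is not given in the sources used here.

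The light reactions of photosynthesis run through 2 photosystems in the thylakoid membrane, each a core of reaction-centre proteins surrounded by antenna proteins that bind chlorophyll. The reaction-centre proteins are encoded in the plastid, whereas the antenna proteins and many small subunits are encoded in the nucleus, translated in the cytosol and imported. LHCA proteins serve photosystem I, and LHCB proteins serve mainly photosystem II. The LHCB genes are a classic example of nuclear genes that respond to light and to the circadian clock, and leaves that lack nitrogen commonly hold less chlorophyll and antenna protein.

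Levels are given as CPM, the reads on a gene scaled to a common library size. Each library held 23608279 to 46155689 reads, and the 42 genes drew 5.54 to 9.19% of them, with a median of 8.22%. A difference is given as the change in log2(CPM + 0.1) with its standard error, and a gene is said to rise or fall where the Benjamini-Hochberg adjusted P of limma over the 15108 genes tested was at most 0.05. All 42 genes were among those tested. NRT1.13 itself stood at 7.07 to 10.2 CPM in the wild-type libraries and at 2.19 to 4.65 CPM in the nrt1.13 libraries, without overlap, in the direction of the genotype labels, while some signal remained on the gene (averaged difference -1.18 ± 0.10, adjusted P = 9.5e-09). The shoot label was met by the RBCS and other carbon fixation genes, which summed to 56178 to 57689 CPM in wild type at 2 mM and 16 d. Of 5 root markers IRT1, CASP1, EXPA7 and MYB36 lay below the filter, whereas PYK10 was detected. In whole shoots, fewer green cells and less RNA of a gene per cell cannot be told apart.

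The 5 LHCB1 genes are closely related copies that did not move together, so the start of each coding sequence is shown. LHCB1.1, LHCB1.2 and LHCB1.3 lie beside each other on chromosome 1, and their coding sequences were 95.7 to 96.4% identical to each other. LHCB1.4 and LHCB1.5 lie side by side on chromosome 2, were 91.4% identical to each other, and were 86.8 to 90.4% identical to the chromosome 1 genes. In the 60 coding bases below, read from RefSeq's TAIR10.1 in the direction of the gene, capitals mark bases that differ from the commonest base of the 5 genes at that position.
LHCB1.1 (chr1:10475833-10475892, reverse strand): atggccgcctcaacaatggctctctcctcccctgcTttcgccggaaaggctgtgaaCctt
LHCB1.2 (chr1:10473187-10473246, reverse strand): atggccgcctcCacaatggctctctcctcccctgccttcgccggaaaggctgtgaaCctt
LHCB1.3 (chr1:10478071-10478130, forward strand): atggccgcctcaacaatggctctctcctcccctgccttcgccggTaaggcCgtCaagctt
LHCB1.4 (chr2:14524818-14524877, forward strand): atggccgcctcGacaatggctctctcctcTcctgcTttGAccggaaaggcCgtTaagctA
LHCB1.5 (chr2:14523454-14523513, reverse strand): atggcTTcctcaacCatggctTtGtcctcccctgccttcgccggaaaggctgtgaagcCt
The sequences differ in 2 to 8 of these bases, and LHCB1.4 differs most. Of all stretches of 75 bases, the read length, in the annotated transcripts, 3.66 to 10.4% in each LHCB1 gene, 15.3% in LHCB2.1 and 19.1% in LHCB2.2 also occurred in another gene. The authors kept only uniquely mapped reads, so read pairs that lie wholly in such stretches may be missing from the levels of these genes. LHCA2 shared 3.07% of its stretches with AT5G28450, and no other gene of the 42 shared any.

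The 250 bases before the annotated start are shown for the largest decreases under low nitrate at 25 d: LHCB1.4, LHCB1.5 and PSBQ2. They are also shown for LHCB1.1, which rose under low nitrate at 25 d, and for LHCB4.3, which rose with age. Capitals mark matches, on either strand, to 5 motifs that are known from light- and clock-regulated plant promoters: the G-box CACGTG, the I-box GATAAG, the sequence CCAATC (GLK-type), the evening element AAAATATCT, and the CCA1-binding sequences AACAATCT or AAAAATCT. None of these motifs lies within another.
LHCB1.1 (TAIR10.1, chr1:10475970-10476219, reverse strand): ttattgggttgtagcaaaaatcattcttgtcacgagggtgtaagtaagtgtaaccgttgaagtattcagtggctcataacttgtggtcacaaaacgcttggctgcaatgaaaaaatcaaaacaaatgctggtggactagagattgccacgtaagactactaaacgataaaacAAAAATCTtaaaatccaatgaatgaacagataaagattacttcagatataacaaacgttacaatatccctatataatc
LHCB1.4 (TAIR10.1, chr2:14524357-14524606, forward strand): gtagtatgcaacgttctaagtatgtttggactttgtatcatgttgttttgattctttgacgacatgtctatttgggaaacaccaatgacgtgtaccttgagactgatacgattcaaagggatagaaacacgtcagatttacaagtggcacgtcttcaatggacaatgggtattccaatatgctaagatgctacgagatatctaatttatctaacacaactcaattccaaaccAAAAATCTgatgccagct
LHCB1.5 (TAIR10.1, chr2:14523569-14523818, reverse strand): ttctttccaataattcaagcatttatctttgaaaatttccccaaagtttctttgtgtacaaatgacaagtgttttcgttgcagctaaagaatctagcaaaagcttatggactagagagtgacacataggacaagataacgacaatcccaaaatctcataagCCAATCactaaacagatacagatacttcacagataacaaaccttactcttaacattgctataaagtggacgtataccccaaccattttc
PSBQ2 (TAIR10.1, chr4:2673244-2673493, reverse strand): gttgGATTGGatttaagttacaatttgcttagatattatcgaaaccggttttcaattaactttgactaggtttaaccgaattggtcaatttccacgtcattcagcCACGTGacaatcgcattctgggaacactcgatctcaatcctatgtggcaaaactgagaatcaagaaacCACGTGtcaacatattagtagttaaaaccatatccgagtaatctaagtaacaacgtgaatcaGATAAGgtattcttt
LHCB4.3 (TAIR10.1, chr2:16745378-16745627, forward strand): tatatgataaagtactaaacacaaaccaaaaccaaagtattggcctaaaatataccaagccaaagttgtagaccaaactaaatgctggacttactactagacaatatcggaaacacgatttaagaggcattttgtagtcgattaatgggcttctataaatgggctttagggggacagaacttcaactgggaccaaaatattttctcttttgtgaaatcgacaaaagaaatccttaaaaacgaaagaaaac
LHCB1.1, which rose with low nitrate at 25 d, and LHCB1.4, which fell most, each held 1 CCA1-binding match and none of the other motifs. LHCB1.5 held 1 CCAATC match, PSBQ2 held 2 G-boxes, 1 I-box and 1 CCAATC match, and LHCB4.3 held none. Across the 42 genes the G-box was found in 19.0%, against 6.49% of 27443 nuclear gene windows of the same length, CCAATC in 26.2% against 10.2%, and the I-box in 21.4% against 12.3%. The CCA1-binding sequences were found in 14.3% against 8.39%, and the evening element in 2.38% against 2.36%. These are matches of letters in the window.

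At 25 d, low nitrate was accompanied by lower levels of most of the 42 genes in both genotypes. In wild type 35 of 42 genes fell and 1 rose, where 20.1% of all genes tested fell and 18.9% rose. In nrt1.13 33 fell and 1 rose, against 20.9% and 19.1% of all genes. The median change of the 42 genes was -0.45 in wild type and -0.46 in nrt1.13, while the median of all genes tested was 0.01 and 0. Among the 784 genes with a mean CPM of at least 200, to which 39 of the 42 belong, 31.2% fell in wild type and 30.5% in nrt1.13. Of these 39 genes, 33 fell in wild type and 32 in nrt1.13. All 3 plants at 0.2 mM lay below all 3 at 2 mM for 36 of the 42 genes in wild type and for 34 in nrt1.13, and this held for 26.5% and 23.7% of all genes. By the study's criteria, a change of 1.8-fold or more together with an unadjusted P no higher than 0.05, only 3 genes passed in each genotype, LHCB1.4, LHCB1.5 and PSBQ2, against 2.46% of all genes in wild type and 2.48% in nrt1.13. Summed over the 42 genes, the level at 25 d was 82640.5 ± 3041 CPM at 2 mM and 60062 ± 3625 CPM at 0.2 mM in wild type (SD, n = 3), and 86119.6 ± 3306 and 61852 ± 7081 CPM in nrt1.13.

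**Figure D1:**
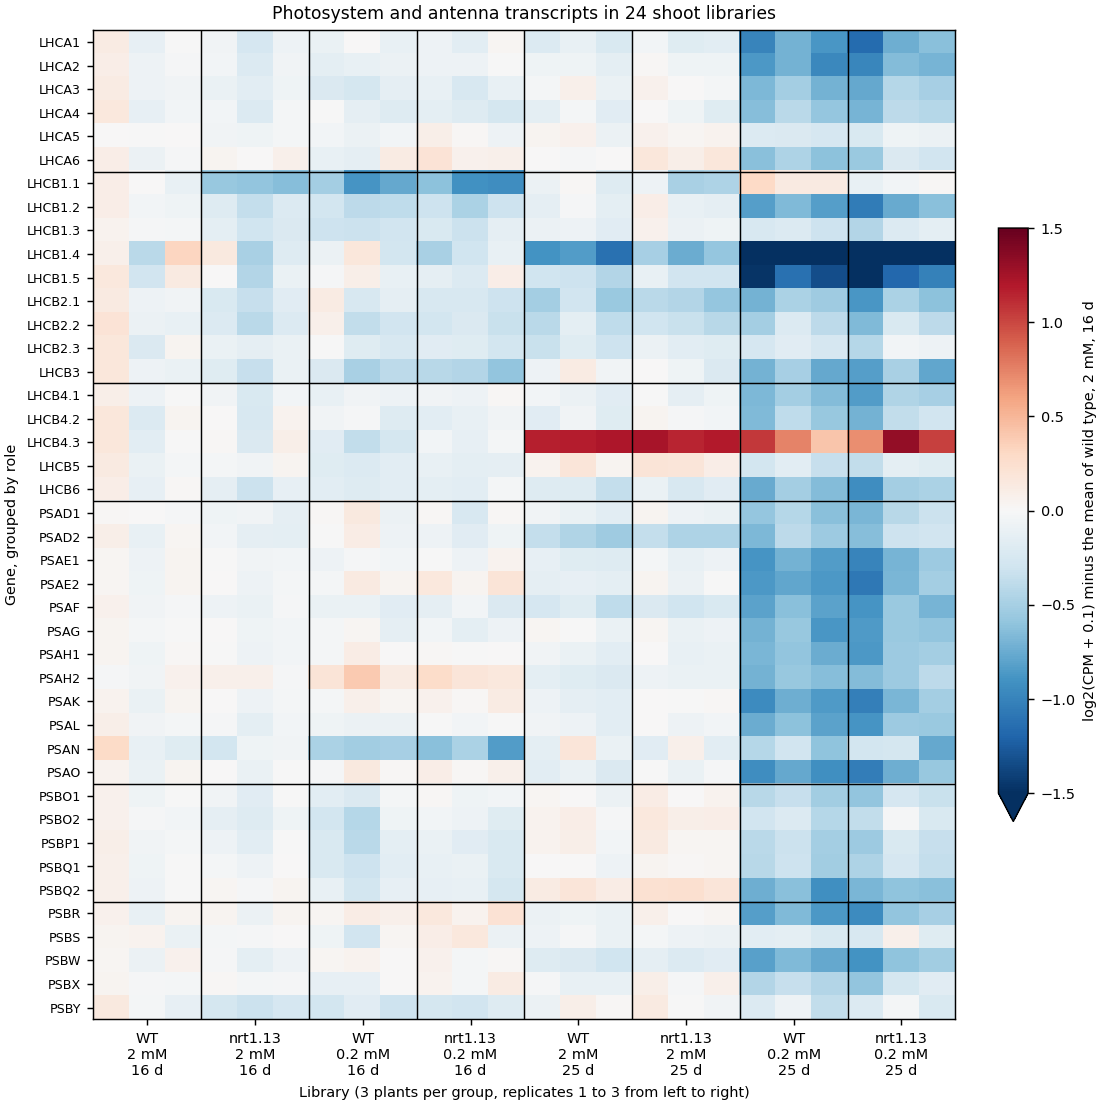
Each row is a gene and each column a library, coloured by log2(CPM + 0.1) minus the mean of the 3 wild-type libraries at 2 mM and 16 d; the colour scale is clipped at -1.5. Most rows turn blue in the 6 libraries of 0.2 mM at 25 d, LHCB1.4 being the darkest, whereas LHCB4.3 is red in all 12 libraries of 25 d.

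The photosystem I antenna genes all moved one way. All 6 LHCA genes fell at 25 d in both genotypes, with a median change of -0.59 in wild type and -0.54 in nrt1.13. LHCA2, a member of the antenna belt of photosystem I, had 3161, 3165 and 2988 CPM in the wild-type plants at 2 mM and 1814, 2027 and 1691 CPM at 0.2 mM. In nrt1.13 the values of LHCA2 were 3343, 3153 and 3163 CPM at 2 mM and 1678, 2105 and 2037 CPM at 0.2 mM. All low-nitrate plants lay below all plants at 2 mM, and the change was -0.76 ± 0.08 in wild type (adjusted P = 6.1e-08) and -0.74 ± 0.08 in nrt1.13 (adjusted P = 1.0e-07). LHCA1, LHCA3 and LHCA4, which complete the belt, changed by -0.68, -0.61 and -0.42 in wild type. The weakest change was in LHCA5 (-0.23 in wild type and -0.18 in nrt1.13), which with LHCA6 (-0.56 and -0.49) links photosystem I to the chloroplast NDH complex. In nrt1.13 the call of LHCA5 was lost without replicate 1 at 0.2 mM (-0.13, adjusted P = 0.074) and in a fit of only the libraries compared (adjusted P = 0.071), which left 5 LHCA genes called. These last 2 genes were also the least abundant of the class, at 219 and 157 CPM per kb of transcript over all libraries, against 1246 to 2018 CPM per kb for the other LHCA genes.

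Of the 9 genes of the major light-harvesting complex II, the trimeric antenna of photosystem II, 4 fell and 1 rose at 25 d in each genotype. The 5 LHCB1 genes ranged from the largest decrease of all 42 genes to the only increase that passed the threshold. LHCB1.4 gave 272, 284 and 233 CPM in wild type at 2 mM and 90.4, 98.6 and 90.8 CPM at 0.2 mM. The nrt1.13 plants gave 358, 303 and 339 CPM and 72.6, 91.3 and 121 CPM. All low-nitrate plants lay far below all plants at 2 mM, and the change was -1.49 ± 0.17 in wild type (adjusted P = 6.6e-08) and -1.84 ± 0.17 in nrt1.13 (adjusted P = 3.3e-09). LHCB1.5, its neighbour on chromosome 2, went from 2535, 2516 and 2296 CPM to 1128, 1434 and 1243 CPM in wild type. In nrt1.13 LHCB1.5 went from 2879, 2561 and 2546 CPM to 986, 1373 and 1537 CPM. The groups did not overlap, with changes of -0.95 ± 0.14 (adjusted P = 3.9e-06) and -1.06 ± 0.14 (adjusted P = 9.2e-07).

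Of the chromosome 1 genes, LHCB1.2 fell, LHCB1.3 missed the threshold and LHCB1.1 rose. LHCB1.2 had 1906, 2059.8 and 1883 CPM at 2 mM and 1174, 1317 and 1183 CPM at 0.2 mM in wild type, a change of -0.67 ± 0.09 (adjusted P = 1.2e-06). In nrt1.13 its values were 2236, 1939 and 1908 CPM and 1008, 1239 and 1349 CPM, a change of -0.76 ± 0.09 (adjusted P = 1.8e-07). LHCB1.3 is the most abundant of the 42 transcripts, at 9038 CPM per kb. Its wild-type values were 11772, 11905 and 11118 CPM at 2 mM and 10572, 10884 and 10069.6 CPM at 0.2 mM, and its nrt1.13 values were 13077, 11764 and 12005 CPM and 9199.5, 10843 and 11339 CPM. The LHCB1.3 groups did not overlap in either genotype, but the differences of -0.14 ± 0.10 (adjusted P = 0.25) and -0.24 ± 0.10 (adjusted P = 0.051) did not pass. LHCB1.1 had 608, 653 and 565 CPM in wild type at 2 mM and 793, 708 and 707 CPM at 0.2 mM. In nrt1.13 it had 611, 462 and 469 CPM and 598, 626 and 653 CPM, so that the low-nitrate plants were all higher in wild type and overlapped those at 2 mM in nrt1.13. The increase of LHCB1.1 was 0.27 ± 0.10 (adjusted P = 0.03) in wild type and 0.29 ± 0.10 (adjusted P = 0.02) in nrt1.13. It was the weakest of these calls: it was lost in wild type without any of 3 libraries (replicates 1 and 3 at 2 mM or replicate 1 at 0.2 mM, lowest value 0.22), and in nrt1.13 without replicate 2 or 3 at 2 mM or replicate 3 at 0.2 mM (lowest value 0.22). It was also lost in both genotypes with no filter on low values (adjusted P = 0.071 and 0.051) and under quantile normalization, where the values were 0.10 and 0.12. In wild type alone it was lost without the mean-variance trend in limma (adjusted P = 0.0501).

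The sum of the 5 LHCB1 genes moved less than most of them. It was 16869 ± 689.9 CPM at 2 mM and 13831 ± 578 CPM at 0.2 mM in wild type at 25 d (SD, n = 3), and 17819 ± 1168 and 13678 ± 1624 CPM in nrt1.13. The make-up of the sum shifted: LHCB1.3 held 68.8% ± 0.375 of it at 2 mM and 76.0% ± 0.772 at 0.2 mM in wild type, and LHCB1.1 went from 3.61% ± 0.128 to 5.33% ± 0.429. LHCB1.5 went from 14.5% ± 0.289 to 9.16% ± 0.884, and LHCB1.4 from 1.56% ± 0.0954 to 0.674% ± 0.0148. In nrt1.13 the share of LHCB1.4 went from 1.87% ± 0.0930 to 0.688% ± 0.105 and that of LHCB1.1 from 2.87% ± 0.273 to 4.60% ± 0.377. The share of LHCB1.2 went from 11.6% ± 0.360 to 8.85% ± 0.296 in wild type and from 11.4% ± 0.311 to 8.75% ± 0.247 in nrt1.13. The chromosome 2 genes and LHCB1.2 thus gave a smaller part of the LHCB1 reads at low nitrate and 25 d. LHCB1.1 and LHCB1.3 gave a larger part.

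**Figure D2:**
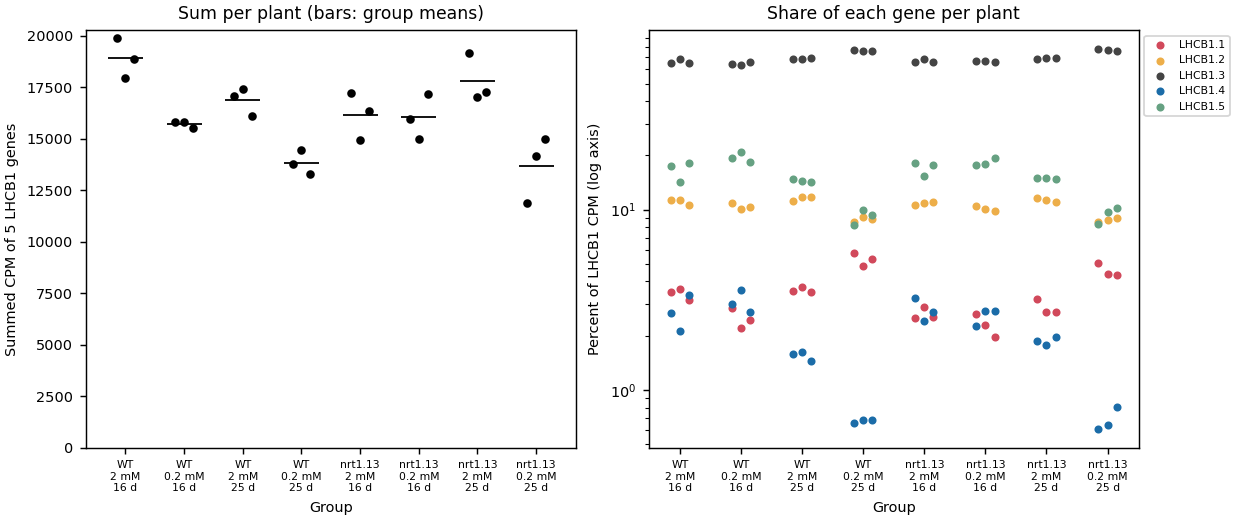
Left, the summed CPM of the 5 LHCB1 genes in each plant, with bars at the group means; right, the percent of that sum from each gene in each plant, on a log axis. The shares of LHCB1.2, LHCB1.4 and LHCB1.5 are lowest, and those of LHCB1.1 and LHCB1.3 highest, in both groups of 0.2 mM at 25 d.

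LHCB2 proteins sit in the same trimers as LHCB1 and are phosphorylated when the antenna is shared between the photosystems. None of the 3 LHCB2 genes passed the test for nitrate at 25 d. LHCB2.1 had 203, 235 and 196 CPM at 2 mM and 177, 207 and 198 CPM at 0.2 mM in wild type, and 217, 212 and 192 and 157, 208 and 187 CPM in nrt1.13. LHCB2.2 had 204, 243 and 206 CPM and 188, 233 and 205 CPM in wild type, and 219, 213 and 202 and 170.1, 229 and 204 CPM in nrt1.13. LHCB2.3, the least abundant of the 42 at 20.2 CPM per kb, had 26.1, 29.0 and 26.6 CPM and 27.5, 29.3 and 27.7 CPM in wild type, and 31.0, 29.4 and 29.1 and 24.5, 32.0 and 31.1 CPM in nrt1.13. The values at both supplies overlapped for each gene in both genotypes, and the fitted differences ranged from -0.18 for LHCB2.1 in nrt1.13 to 0.05 for LHCB2.3 in wild type. LHCB3, the third kind of trimer protein, fell by contrast, from 1423, 1632 and 1451 CPM to 914, 1059 and 883 CPM in wild type (-0.66 ± 0.10, adjusted P = 6.4e-06). In nrt1.13 LHCB3 fell from 1511, 1433 and 1293 CPM to 843, 1071 and 874 CPM (-0.61 ± 0.10, adjusted P = 2.0e-05).

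The minor antenna proteins bind as monomers between the trimers and the photosystem II core. All 5 of their genes fell at 25 d in wild type, by -0.51 to -0.35, and 4 fell in nrt1.13, where LHCB4.3 did not pass. LHCB4.1 is the most abundant of them, at 2574 CPM per kb. It went from 3966, 3828 and 3606 CPM to 2547, 2862 and 2599 CPM in wild type and from 4065, 3714 and 3879 CPM to 2279.9, 2965 and 2875 CPM in nrt1.13, without overlap. LHCB4.3, a divergent LHCB4 form with 65.2 to 66.5% coding identity to the other LHCB4 genes, stood at only 30.1 CPM per kb. Its wild-type values were 58.9, 59.6 and 61.1 CPM at 2 mM and 54.9, 44.1 and 35.2 CPM at 0.2 mM, a change of -0.44 ± 0.13 (adjusted P = 0.0069). In nrt1.13 the values were 62.1, 58.0 and 60.2 CPM and 42.7, 65.7 and 53.7 CPM and overlapped (-0.17 ± 0.13, adjusted P = 0.29). The wild-type call was lost without replicate 3 at 0.2 mM, where the change was -0.28.

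Among the 12 genes of photosystem I subunits, 11 fell in each genotype, with a median of -0.60 in wild type and -0.59 in nrt1.13. PSAE and PSAD form the stromal side where ferredoxin docks. PSAE2 went from 699, 706 and 694 CPM to 425, 447 and 424 CPM in wild type and from 789.7, 725 and 769.8 CPM to 367, 477 and 541 CPM in nrt1.13. Its changes were -0.70 ± 0.09 (adjusted P = 4.0e-07) and -0.74 ± 0.09 (adjusted P = 1.7e-07), and its copy PSAE1 changed by -0.64 and -0.67. PSAD1 fell by 0.44 on the log2 scale in wild type, whereas its copy PSAD2 did not pass: PSAD2 had 390.1, 367 and 345 CPM at 2 mM and 314, 381 and 342 CPM at 0.2 mM in wild type, and 391, 364 and 362 and 322, 405 and 409 CPM in nrt1.13. The PSAD2 groups overlapped, and the differences were -0.09 ± 0.08 and 0.01 ± 0.08.

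PSAK and PSAO sit at the edge of photosystem I, where LHCII can dock. PSAK had 1473, 1421 and 1393 CPM at 2 mM and 807, 938 and 861 CPM at 0.2 mM in wild type, and 1559.8, 1550.4 and 1569 and 767, 967 and 1093 CPM in nrt1.13. PSAO had 1925, 1999.9 and 1844 CPM and 1122, 1259 and 1132 CPM in wild type, and 2133, 1997 and 2106 and 1045, 1291 and 1438 CPM in nrt1.13. Both genes were lower in every low-nitrate plant, by -0.72 ± 0.09 and -0.72 ± 0.09 in wild type and by -0.74 ± 0.09 and -0.74 ± 0.09 in nrt1.13. The other subunit genes that fell, PSAF (the plastocyanin docking subunit), PSAG, PSAH1, PSAH2 and PSAL, changed by -0.69 to -0.45 in wild type. PSAN, a lumenal subunit, is described with 16 d, since it was low at 0.2 mM on both days.

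Photosystem II showed the same direction. All 5 genes of the oxygen-evolving complex fell in both genotypes, and PSBQ2 fell most. PSBQ2, an extrinsic lumenal protein of this complex, had 1504, 1566 and 1487 CPM at 2 mM and 831, 890.4 and 731 CPM at 0.2 mM in wild type. In nrt1.13 it had 1612, 1625 and 1565 CPM and 854, 905 and 895 CPM. The gap between the supplies was wider than the spread within any group, with changes of -0.90 ± 0.07 (adjusted P = 2.2e-10) and -0.86 ± 0.07 (adjusted P = 7.8e-10). Its copy PSBQ1 changed by -0.40 ± 0.07 and -0.38 ± 0.07, PSBO1, the more abundant of 2 manganese-stabilising genes, by -0.41 ± 0.09 and -0.44 ± 0.09, and PSBP1 by -0.45 ± 0.09 and -0.43 ± 0.09. PSBO2, the other manganese-stabilising gene, changed by -0.35 ± 0.09 and -0.32 ± 0.09. PSBR, a small subunit needed to bind the oxygen-evolving proteins, went from 3849, 3908 and 3816 CPM to 2307, 2580.2 and 2262 CPM in wild type. In nrt1.13 PSBR went from 4327, 4104 and 4167 CPM to 2129, 2717 and 2899 CPM. These PSBR groups did not overlap either (-0.70 ± 0.09 and -0.71 ± 0.09, adjusted P = 9.0e-07 and adjusted P = 6.9e-07).

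PSBS, the pH sensor of photoprotective energy dissipation, did not pass in any of the 12 comparisons of a single group with another. Its wild-type values at 25 d were 1949.7, 2023 and 1915 CPM at 2 mM and 1834, 1853 and 1741 CPM at 0.2 mM, and those of nrt1.13 were 2008, 1939.7 and 1923 CPM and 1739, 2163 and 1811 CPM. The differences were -0.12 ± 0.08 (adjusted P = 0.28) and -0.05 ± 0.08 (adjusted P = 0.7). The wild-type plants at 0.2 mM all lay below those at 2 mM, whereas the nrt1.13 groups overlapped. PSBW, PSBX and PSBY, small membrane subunits of photosystem II, changed by -0.52, -0.33 and -0.22 in wild type, where all passed, and by -0.50, -0.39 and -0.18 in nrt1.13, where PSBY did not. The PSBY groups overlapped in both genotypes, and its wild-type call was lost without replicate 2 or 3 at 2 mM or replicate 1 or 3 at 0.2 mM (adjusted P = 0.052 to 0.19 in limma; the change was -0.15 without replicate 3 at 0.2 mM) and with no filter on low values (adjusted P = 0.06).

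**Figure D3:**
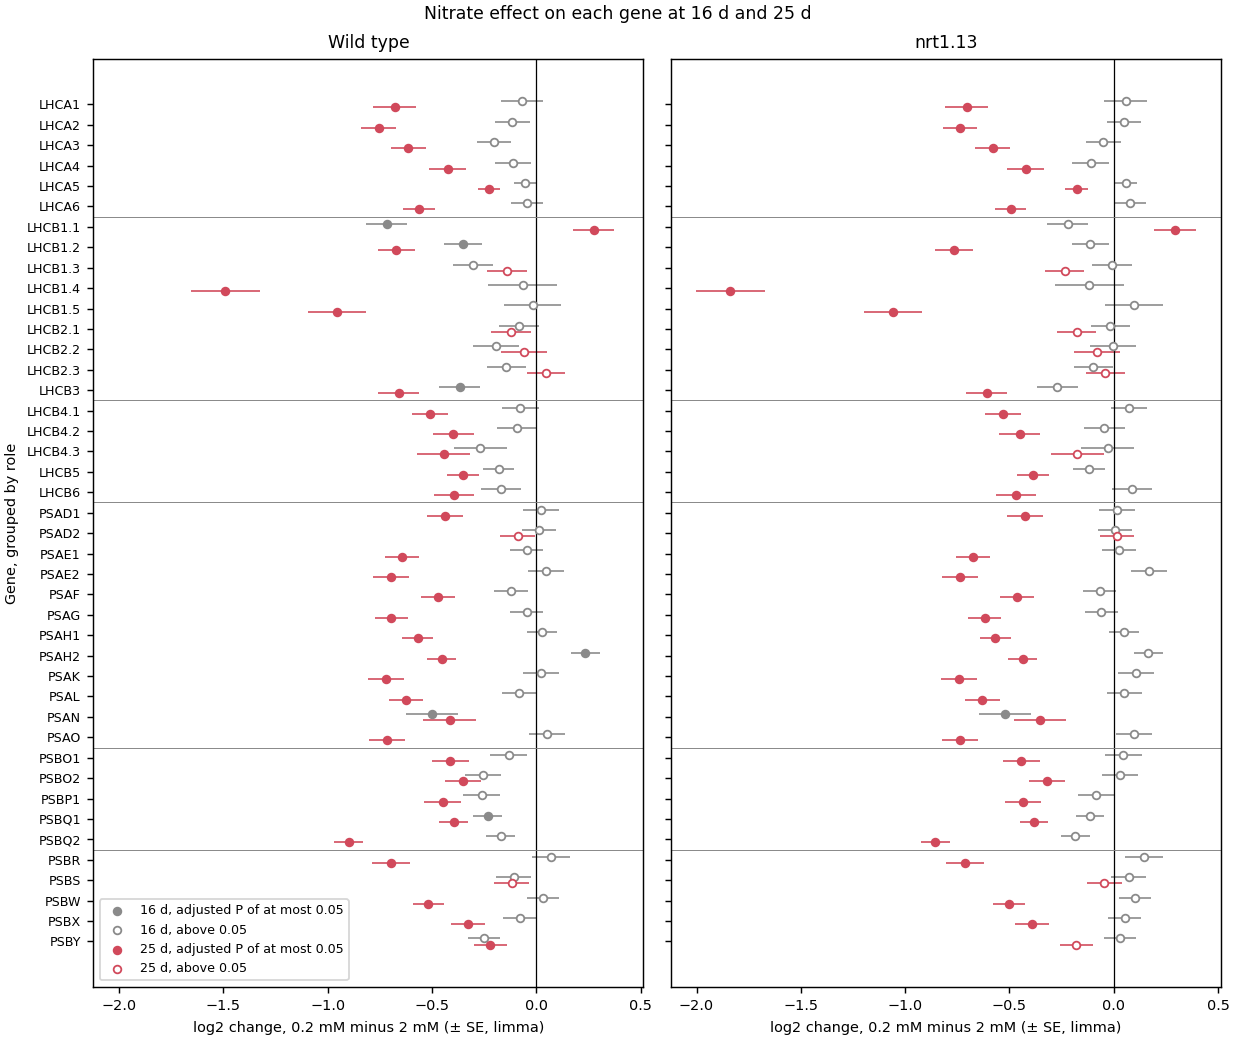
The log2 change of each gene, 0.2 mM minus 2 mM, with bars of 1 standard error, in wild type (left) and nrt1.13 (right); grey points are 16 d and red points 25 d, and filled points have an adjusted P of at most 0.05. Most red points lie left of 0 and away from their grey points, LHCB1.1 lies right of 0 at 25 d, and the points of PSAN for both days lie close together.

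At 16 d few of these genes passed the test for nitrate supply. In wild type 5 fell and 1 rose, together 14.3% of the 42 against 6.2% of all genes tested, and in nrt1.13 1 fell against 2.83% of all genes. LHCB1.1 showed the largest change at 16 d, opposite to 25 d. Its wild-type values were 693, 649.9 and 597 CPM at 2 mM and 453, 351 and 380.2 CPM at 0.2 mM, a difference without overlap of -0.72 ± 0.10 (adjusted P = 0.00017). In nrt1.13, 435, 429 and 416 CPM at 2 mM stood against 419.9, 344 and 339 CPM at 0.2 mM, a difference of -0.22 ± 0.10 that did not pass (adjusted P = 0.2). The difference of its nitrate effect between the genotypes at 16 d was not tested by itself. Averaged with 25 d, where the effects were 0.27 in wild type and 0.29 in nrt1.13, this difference was 0.26 ± 0.10 and did not pass. The other genes that fell in wild type were PSAN (-0.50 ± 0.13), LHCB3 (-0.37 ± 0.10), LHCB1.2 (-0.35 ± 0.09) and PSBQ1 (-0.23 ± 0.07), and PSAH2, a subunit at the LHCII docking side, rose (0.24 ± 0.07). PSAH2 had 959, 937 and 1011 CPM at 2 mM and 1103, 1275 and 1053 CPM at 0.2 mM. Of these 6 calls only 1, that of LHCB1.1, was left once the first wild-type library of 2 mM and 16 d, which had the highest sum of the 42 genes, was omitted, and the same number was left without replicate 2 of 0.2 mM and 2 without replicate 2 of 2 mM. Without replicate 1 of nrt1.13 at 0.2 mM and 25 d, which is in neither group compared, there were 10.

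PSAN was lower under low nitrate at both days. In wild type it had 831, 628 and 599 CPM at 2 mM and 487, 471 and 481 CPM at 0.2 mM at 16 d, and 614, 767 and 634 and 506, 555 and 447 CPM at 25 d. In nrt1.13 it had 561, 651 and 655 CPM and 439, 487 and 378 CPM at 16 d, and 605, 713 and 609.9 and 559.9, 564 and 399.9 CPM at 25 d. Every low-nitrate plant was below every plant at 2 mM of its genotype and day. The change was -0.50 ± 0.13 and -0.42 ± 0.13 in wild type at 16 and 25 d, and -0.52 ± 0.13 and -0.35 ± 0.13 in nrt1.13 (adjusted P between 0.0099 and 0.029). Each of these calls was lost without any of 2 to 4 libraries; without replicate 1 at 2 mM the wild-type value at 16 d was -0.35, and without replicate 3 at 0.2 mM the nrt1.13 value at 25 d was -0.19. The difference of the nitrate effect between the days was 0.13 ± 0.13 (adjusted P = 0.43).

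The test of the nitrate effect at 25 d minus that at 16 d asks whether the response to supply depends on the day. Averaged over the genotypes, this difference was negative and past the threshold in 32 of the 42 genes and positive in 1, where 25.4% and 21.7% of all genes tested passed in these directions. In wild type alone 20 genes passed in the negative and 1 in the positive direction (17.6% and 15.5% of all genes), and in nrt1.13 29 and 1 (15.9% and 13.3%). No call was made in the averaged test for 9 genes, which were LHCB1.3, the 3 LHCB2 genes, LHCB4.3, PSAD2, PSAN, PSBS and PSBY. The largest differences were -1.57 ± 0.17 for LHCB1.4 and -1.05 ± 0.14 for LHCB1.5, followed by PSAE2 (-0.82 ± 0.09), PSBR (-0.81 ± 0.09) and PSAO (-0.80 ± 0.09). At 16 d PSAE2 had 786, 736 and 789.8 CPM at 2 mM and 753, 848 and 790.4 CPM at 0.2 mM in wild type, and 772, 731 and 753 CPM and 856, 795 and 884 CPM in nrt1.13. PSAO had 2226, 1997 and 2203 CPM and 2121, 2373 and 2165 CPM in wild type at 16 d, and 2151, 1996 and 2127 CPM and 2286, 2172 and 2251 CPM in nrt1.13. Thus the supplies overlapped in wild type at 16 d for both genes, and in nrt1.13 the plants at 0.2 mM were the higher ones. LHCB1.1 was the gene that passed with a positive difference, 0.75 ± 0.10 (adjusted P = 7.6e-07 in limma). This difference was 0.99 ± 0.14 in wild type and 0.51 ± 0.14 in nrt1.13.

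Read along the days, more of the 42 genes passed at 0.2 mM than at 2 mM. At 0.2 mM, from 16 to 25 d, 31 genes fell and 2 rose in wild type (31.2% and 23.2% of all genes tested) and 30 fell and 2 rose in nrt1.13 (29.4% and 21.2%). The median change was -0.48 in wild type and -0.41 in nrt1.13, against -0.05 for all genes in each. By the study's criteria 9 genes passed in wild type and 4 in nrt1.13, against 6.35% and 4.45% of all genes. At 2 mM 1 gene rose and 4 fell in wild type, 11.9% of the 42 against 7.02% of all genes, and 2 rose and 1 fell in nrt1.13, 7.14% against 9.7%. These counts at 2 mM were less stable: a fit of only the libraries compared gave 10 and 13, and without replicate 1 of nrt1.13 at 0.2 mM and 25 d, which is in neither group, there were 8 in wild type. All plants of 25 d lay below those of 16 d for 14 genes and above them for 2 in wild type at 2 mM (19% and 11.8% of all genes), and below for 6 and above for 14 in nrt1.13 (19.8% and 15.2%). At 0.2 mM they lay below for 30 genes and above for 2 in each genotype (33.2% and 25.2% of all genes in wild type, 29% and 21.2% in nrt1.13). The comparisons of day and of supply share their low-nitrate libraries at 25 d, so they are not separate evidence.

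LHCB1.4 fell further with age than any other of the 42. From 533, 384 and 634 CPM in wild type at 2 mM and 16 d it went to 272, 284 and 233 CPM at 25 d (-0.95 ± 0.17, adjusted P = 0.00046). At 0.2 mM it went from 476, 568 and 419 CPM to 90.4, 98.6 and 90.8 CPM (-2.37 ± 0.17, adjusted P = 9.5e-12). The nrt1.13 plants showed 559, 361 and 444 CPM at 2 mM and 362, 412 and 470.1 CPM at 0.2 mM at 16 d, and the changes to 25 d were -0.43 ± 0.17 (adjusted P = 0.1) and -2.15 ± 0.17 (adjusted P = 9.1e-11). LHCB1.5 followed at 0.2 mM with -1.29 ± 0.14 in wild type and -1.21 ± 0.14 in nrt1.13, from 3074, 3298 and 2872 CPM and 2843, 2698 and 3339 CPM at 16 d. PSAO, PSAE2, PSAK, PSAH2 and PSBR came next at 0.2 mM in wild type, with changes of -0.92 to -0.85 in wild type and -0.89 to -0.74 in nrt1.13. PSAK went from 1521, 1635 and 1588 CPM at 16 d to 807, 938 and 861 CPM at 25 d in wild type, and from 1632, 1578 and 1699.6 CPM to 767, 967 and 1093 CPM in nrt1.13, without overlap.

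LHCB4.3 and LHCB1.1 rose with age. LHCB4.3 had 29.6, 23.5 and 26.1 CPM in wild type at 2 mM and 16 d and 23.4, 20.2 and 21.8 CPM at 0.2 mM, below every plant of 25 d. In nrt1.13 at 16 d it had 26.6, 22.7 and 28.0 CPM at 2 mM and 25.4, 24.1 and 25.8 CPM at 0.2 mM. The change with age was 1.19 ± 0.13 and 1.01 ± 0.13 in wild type at 2 and 0.2 mM, and 1.22 ± 0.13 and 1.08 ± 0.13 in nrt1.13. It was the only one of the 42 genes that passed in all 4 comparisons of the days upwards, and its largest adjusted P was 1.0e-06. LHCB1.1 rose at 0.2 mM, by 0.90 ± 0.10 in wild type (adjusted P = 2.5e-08) and 0.77 ± 0.10 in nrt1.13 (adjusted P = 4.3e-07), and every plant of 25 d at 0.2 mM was above every plant of 16 d at that supply.

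PSAD2, LHCB2.1, PSAF and PSBY also changed with age. PSAD2 fell at both supplies: it had 533, 462 and 509 CPM in wild type at 2 mM and 16 d and 499.9, 541 and 474 CPM at 0.2 mM, and changed by -0.45 ± 0.08 and -0.55 ± 0.08 to 25 d. In nrt1.13 the changes were -0.32 ± 0.08 and -0.31 ± 0.08, and the call at 2 mM was lost without replicate 1 of 16 d or replicate 2 or 3 of 25 d (adjusted P = 0.054 to 0.07). LHCB2.1 fell with age in wild type at both supplies, from 316, 273 and 277 CPM and 315, 244 and 262 CPM at 16 d (-0.45 ± 0.10 and -0.49 ± 0.10), and in nrt1.13 at 0.2 mM (-0.39 ± 0.10). PSAF also fell with age in wild type at 2 mM (-0.27 ± 0.08, adjusted P = 0.042), a call that was lost without any of 8 of the 24 libraries (smallest change -0.22, without replicate 3 of 25 d), with no filter on low values and with median-ratio scaling. PSBY rose in nrt1.13 at 2 mM, from 833, 796 and 839 CPM to 1100.4, 993 and 966 CPM (0.31 ± 0.08, adjusted P = 0.012). This call was lost without replicate 2 of 16 d (0.28, adjusted P = 0.058) or replicate 1 of 25 d (0.25, adjusted P = 0.092) and under quantile normalization (0.20, adjusted P = 0.13). The wild-type plants, with 1109.8, 979 and 917 CPM and 941, 1062 and 1009 CPM, gave 0.01 ± 0.08, and the difference between the genotypes averaged over the supplies did not pass.

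**Figure D4:**
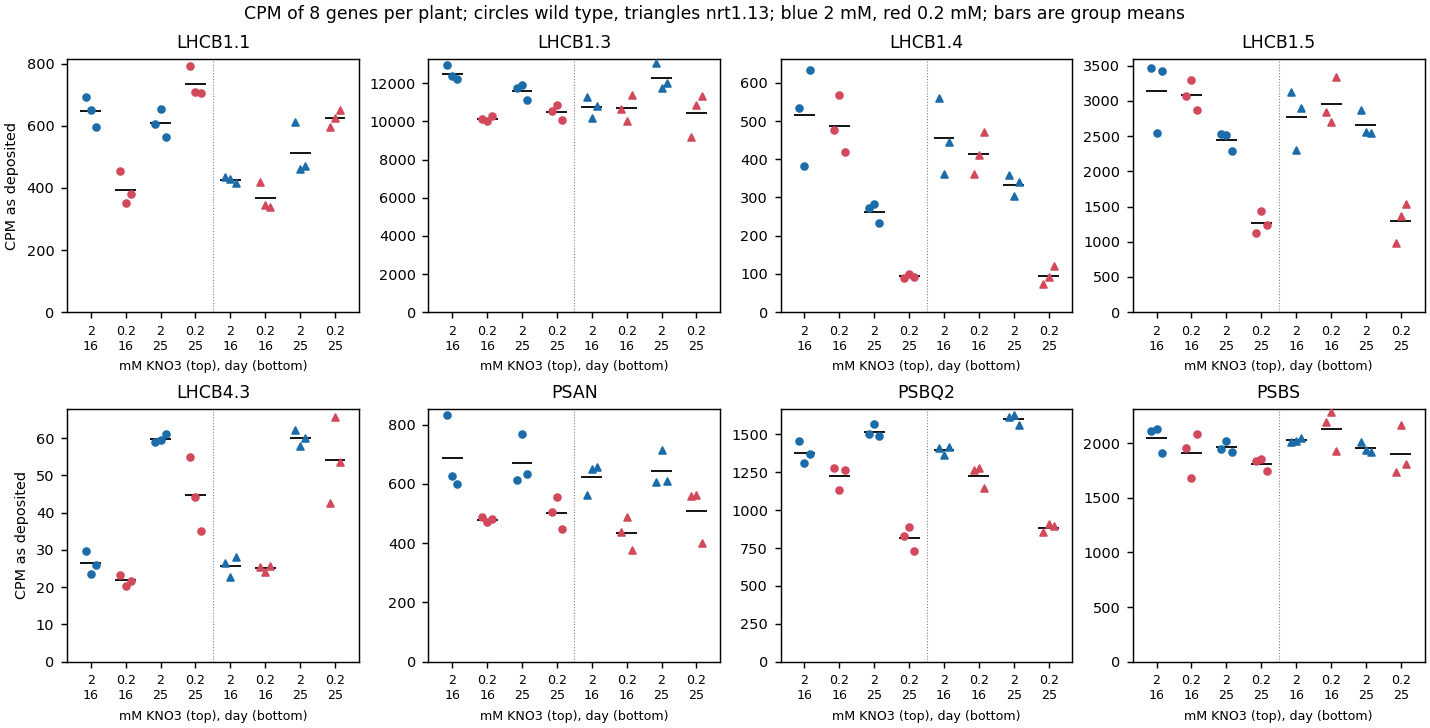
CPM of 8 genes in each plant, with bars at the group means; blue is 2 mM and red 0.2 mM, circles are wild type and triangles nrt1.13, and every axis starts at 0. LHCB1.4, LHCB1.5 and PSBQ2 are lowest in the red points of 25 d, LHCB1.1 is high there, LHCB4.3 is high in all plants of 25 d, and PSBS has the narrowest range.

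Few differences between the genotypes were called among these transcripts. In the limma fit 1 of the 42 genes fell in nrt1.13 at 2 mM and 16 d (0.0728% of all genes tested were called), and 0 were called at 0.2 mM and 16 d (0.132%), at 2 mM and 25 d (0.086%) and at 0.2 mM and 25 d (0.258%). At an unadjusted P of at most 0.05 there were 7, 1, 2 and 3 of the 42 genes in these conditions. Of the 15108 genes tested there were 1051, 1470, 827 and 922. By edgeR on the recovered reads 1, 0, 0 and 0 of the 42 were called. Averaged over the 4 conditions 1 gene fell and none rose, against 1.7% of all genes called. Without replicate 1 of nrt1.13 at 0.2 mM and 25 d the averaged test called 3, and it called 2 when any of 3 wild-type libraries was omitted (2 mM, 16 d, replicate 1; 0.2 mM, 16 d, replicate 3; 0.2 mM, 25 d, replicate 2). The median difference of the 42 genes was -0.08 at 2 mM and 16 d, 0.01 at 0.2 mM and 16 d, and 0.06 at both supplies at 25 d. In these conditions 39, 19, 7 and 7 of the 42 differences were below 0. Of the 15108 genes tested 7714, 7549, 7540 and 7846 were below 0. The counts for the 42 are not separate results, since most of these genes followed each other across the libraries, as described below. They also depend on the scaling: under quantile normalization the medians of the 42 were -0.03, -0.04, 0.01 and 0.03 in the same order. At 2 mM and 16 d all nrt1.13 plants lay below all wild-type plants for 11 genes (7.92% of all genes) and above them for none, and at 2 mM and 25 d they lay above for 11 (8.66%) and below for none. At 0.2 mM they lay above for 4 (6.33%) at 16 d and below for 1 (3.8%) at 25 d. A difference of the nitrate effect between the genotypes, averaged over the days, was called for 0 of 42 and 0% of all genes. At an unadjusted P of at most 0.05 there was 1 of the 42, against 508 of the 15108, and edgeR called 0 of the 42. A difference of the change with age between the genotypes, averaged over the supplies, was called for 0 of 42 and 0.0794% of all genes. At an unadjusted P of at most 0.05 there were 3 of the 42, against 734 of the 15108, and edgeR called 0 of the 42. Of these 42 differences 1 was below 0, with a median of 0.09, against 7502 of the 15108. A missing call does not show that the genotypes were alike: the standard error of a single-condition difference was 0.05 to 0.17 on the log2 scale.

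The gene called was LHCB1.1. At 2 mM and 16 d it had 693, 649.9 and 597 CPM in wild type and 435, 429 and 416 CPM in nrt1.13, without overlap (-0.60 ± 0.10, adjusted P = 0.0057). The differences in the other conditions were -0.10 ± 0.10 at 0.2 mM and 16 d, -0.25 ± 0.10 at 2 mM and 25 d, and -0.23 ± 0.10 at 0.2 mM and 25 d, none of which passed alone. Averaged over the 4 conditions the difference was -0.30 ± 0.05 (adjusted P = 0.001), with the mean lower in nrt1.13 in 4 of 4 conditions. The call at 2 mM and 16 d was lost without replicate 1 of wild type (-0.55) or replicate 3 of nrt1.13 (-0.58), while the averaged call was kept with each of the 24 libraries left out in turn. LHCA6 was next, with 0.14 ± 0.04 averaged (adjusted P = 0.059), which did not pass.

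How closely the genes followed each other was described by the correlation of each gene's log2 level with the median of the other 41 over the 24 libraries, which share depth, scaling and the 8 groups. For 30 of the 42 genes r was at least 0.8, led by PSAL (0.99), LHCA2 (0.99) and LHCB4.1 (0.98). Only LHCB1.1 (-0.49) and LHCB4.3 (-0.33) had a negative r. PSBY (0.32), PSAN (0.36) and LHCB2.3 (0.43) were low. The range of the group means was widest for LHCB1.4, at 2.44 on the log2 scale, and narrowest for PSBS, at 0.24. LHCB1.4 also had the largest spread between plants of a group, with a standard deviation of 0.25 on the log2 scale.

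Other photosynthesis genes moved in both directions at 25 d. Of all genes tested, 18.9% rose and 20.1% fell in wild type in this comparison of supplies, and 19.1% and 20.9% in nrt1.13. Of 10 genes of electron transport and ATP synthase, 6 fell and 0 rose in wild type (7 at an unadjusted P of at most 0.05), among them ATPG, a subunit of the ATP synthase (-0.48 ± 0.07), and FNR1 and FNR2, the ferredoxin-NADP reductases (-0.40 ± 0.07 and -0.35 ± 0.08). In nrt1.13 4 fell and 1, the leaf ferredoxin FD2, rose (0.40 ± 0.09). Of 10 genes of carbon fixation, 3 rose and 1 fell in each genotype: RCA, Rubisco activase, changed by 0.48 ± 0.09 in wild type, the small subunit gene RBCS2B by 0.43 ± 0.09, RBCS1B by 0.33 ± 0.09, and PRK, phosphoribulokinase, fell (-0.32 ± 0.09). Of 15 genes of chlorophyll synthesis 14 were tested, and 6 rose and 0 fell in wild type, 7 and 0 in nrt1.13. HEMA1, the entry enzyme of the pathway, had 54.6, 78.7 and 55.3 CPM in wild type at 2 mM and 86.4, 106 and 95.4 CPM at 0.2 mM, without overlap (0.63 ± 0.12, adjusted P = 0.0002). CAO, which makes chlorophyll b, rose by 0.47 ± 0.08, and CHLH, a subunit of magnesium chelatase, by 0.40 ± 0.09. The medians of these lists were -0.26, 0 and 0.15 in wild type, beside -0.45 for the 42 genes and 0.01 for all genes. The lists share no gene with the 42. With age at 0.2 mM in wild type, 9 of the 14 chlorophyll genes rose and 0 fell. Of the 10 carbon fixation genes 6 rose and 1 fell, and of the 10 electron transport genes 5 fell and 0 rose. Of all genes tested 23.2% rose and 31.2% fell.

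Of 5 transcription factors known to act on photosynthesis genes, 3 rose and 1 fell at 25 d in both genotypes. For this list and the next ones, the shares of all genes tested at 25 d are those given for the lists above. GLK1, an activator of antenna and chlorophyll genes, fell by 0.53 on the log2 scale in wild type (adjusted P = 7.4e-07), and its partner GLK2 did not pass (0.08 ± 0.07). GNL and GNC, GATA factors of greening, rose by 0.94 ± 0.12 and 0.52 ± 0.08, and HY5, a factor of light signalling, by 0.36 ± 0.10. Of 3 genes of antenna phosphorylation 2 fell: TAP38, the phosphatase of LHCII, had 233, 227 and 225 CPM at 2 mM and 131, 142 and 122 CPM at 0.2 mM in wild type (-0.80 ± 0.07), and STN7, the LHCII kinase, changed by -0.41 ± 0.07. Of 7 LHC-like stress proteins 5 were tested, and in wild type SEP1 (-0.40 ± 0.07) and OHP2 (-0.30 ± 0.06) fell while OHP1 rose (0.20 ± 0.07). ELIP1, below the filter, had 1.37, 1.06 and 1.83 CPM at 2 mM and 3.35, 2.73 and 1.99 CPM at 0.2 mM in wild type. In nrt1.13 it was also higher at 0.2 mM without overlap, whereas the untested ELIP2 overlapped in both genotypes. Of 8 senescence genes 4 were tested, and 3 fell and 0 rose in wild type. They were PAO and PPH, enzymes of chlorophyll breakdown (-0.55 ± 0.08 and -0.41 ± 0.07), and NYC1, which reduces chlorophyll b (-0.30 ± 0.11). In nrt1.13 2 of the 4 fell and 0 rose. SAG13, below the filter, was higher at 0.2 mM in wild type (3.35, 1.61 and 4.80 CPM) than at 2 mM (0.967, 0.863 and 0.124 CPM). Its values overlapped in nrt1.13, and those of the untested SAG12, ORE1 and NAP overlapped in wild type. With age at 0.2 mM all 4 tested senescence genes fell in both genotypes, where 31.2% of all genes tested fell in wild type and 29.4% in nrt1.13. Of the 10 plastid genes of the photosystem cores only psbA and psbC passed the filter in these poly(A) libraries, where plastid genes drew at most 0.0385% of the reads, and they are not read further.

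**Figure D5:**
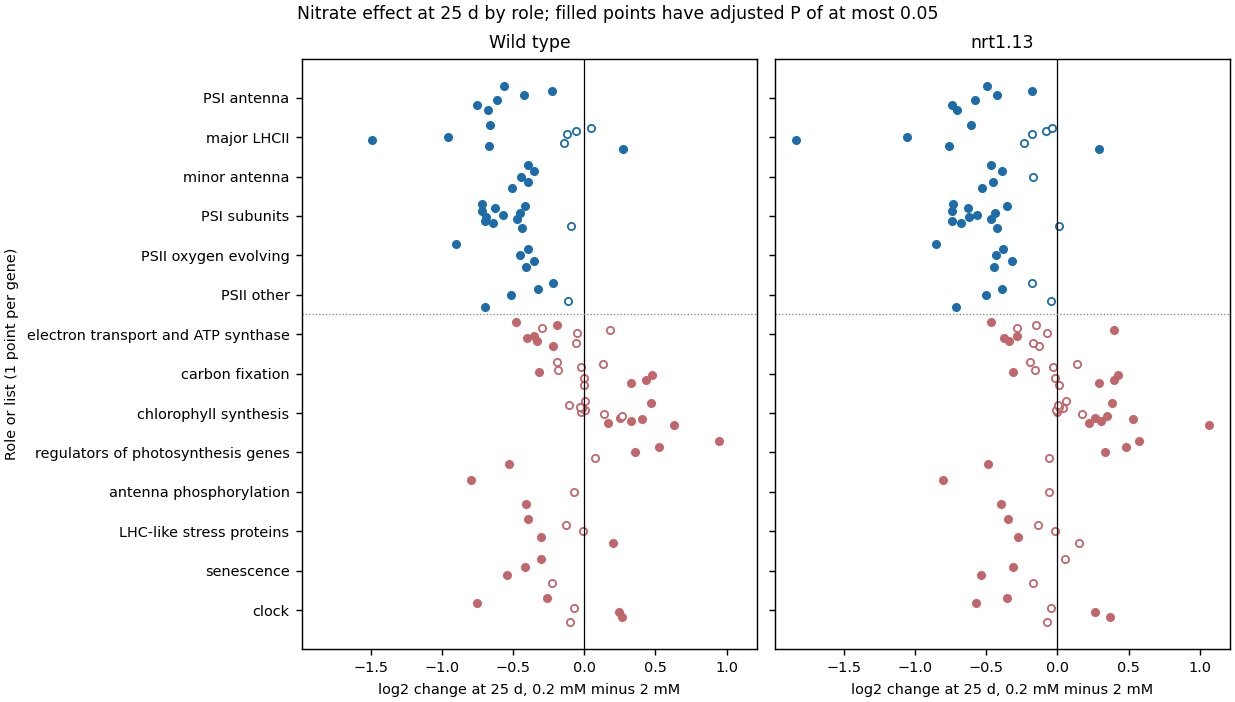
The log2 change at 25 d, 0.2 mM minus 2 mM, of each gene of the 6 role classes (blue, above the dotted line) and of 8 lists of other genes (red), in wild type (left) and nrt1.13 (right); filled points have an adjusted P of at most 0.05. Nearly all blue points outside the major LHCII class lie left of 0, whereas filled points of chlorophyll synthesis lie right of 0.

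Some measures moved with the groups beside these genes. The clock gene ELF4 had 73.7, 69.0 and 66.1 CPM in wild type at 2 mM and 25 d and 42.1, 40.1 and 41.0 CPM at 0.2 mM, and 97.2, 108 and 105 and 173, 184 and 154 CPM at 16 d. It thus changed by -0.76 ± 0.07 with low nitrate at 25 d and by 0.72 ± 0.07 at 16 d. Of 9 clock genes 6 were tested, with 2 rising (GI and PRR7) and 2 falling (ELF4 and LUX) at 25 d in both genotypes. The shares of all genes tested at 25 d are again those given for the lists above. With the hour of harvest unknown, the part of time of day in the differences of the LHCB genes was not tested. The root-abundant gene PYK10 had 74.7, 82.2 and 76.1 CPM at 2 mM and 106, 124 and 130.3 CPM at 0.2 mM in wild type at 25 d (0.62 ± 0.15), and 142 to 273 CPM in the plants of 16 d, while the other 4 root markers together reached at most 0.892 CPM. The 5 floral organ markers summed to 9.55 CPM at most. Root carry-over and flowering tissue, with these values, were not tested as sources of the differences. The nitrate reduction genes NIA1, NIA2 and NIR1 did not pass for nitrate at either day in either genotype, with 2 of 3 at an unadjusted P of at most 0.05 in wild type at 16 d, 1 in nrt1.13 at 16 d and 0 at 25 d.

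The libraries of 0.2 mM at 25 d differed in the share of reads from the 42 genes, which was 5.54 to 6.53% there and 7.95 to 9.19% in the others. Rescaling the CPM over the genes that are not among the 42 left all calls of single genes in place, and the median change at 25 d became -0.49 in both genotypes. The library kit marks strand, but the sources used here do not say whether the counts used it. Genes annotated on the opposite strand overlap LHCA4, LHCA5, LHCB1.3, LHCB1.5, LHCB2.3, LHCB3, LHCB4.2, LHCB6, PSAE1, PSAE2, PSAG, PSAH1, PSAH2, PSAN, PSBP1 and PSBR, and a gene on the same strand overlaps PSAD2 and PSBP1, so reads of such a partner may be in their values.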

How the data were processed

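Shoot RNA of 24 plants was sequenced from stranded poly(A) libraries as paired reads of 75 bases. The authors mapped reads to TAIR10 with CLC Genomics Workbench 10, keeping unique matches, and deposited CPM per gene; the submitters' processing notes also name bcl2fastq 2.17.1.14. The deposited values are a count signal scaled by library size and a further factor that is not given in the sources used here: library sums ran from 968394 to 1038371, and 100% of the values were whole reads within 0.01 read once divided by the value of 1 read. Unit and tests were chosen for such scaled values.

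Genes with at least 2 CPM in all 24 libraries (15108 of 28775) were tested by limma 3.58.1 (R 4.3.3) after log2(CPM + 0.1), with 8 group means, a mean-variance trend and 16 residual degrees of freedom. Contrasts were low minus normal nitrate, 25 minus 16 d, nrt1.13 minus wild type, and their differences. P-values were adjusted by the Benjamini-Hochberg method over all genes tested, and 0.05 was the threshold. They weigh a difference of group means against the spread between plants, with a single estimate per gene shared by all 8 groups. At 2 CPM a gene had 45.5 to 90.8 reads. edgeR 4.0.16 on the recovered reads was an alternative, beside other pseudocounts, filters, scalings, a replicate block, the study's criteria and leaving out each library. The fits were tested on simulated data. Values were summarised in Python 3.11.15 and drawn with matplotlib 3.10.9.

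The members and lists were chosen with earlier results of these data known. Values in each plant are given for the genes with the largest changes past the threshold (up to 5 in each direction), for all LHCB1 and LHCB2 genes and for genes against the common direction; of each list up to 3 genes are named. Genes singled out beyond this were chosen after their values were seen. Sequences were read from RefSeq's TAIR10.1 by locus identifier. Days are counted from sowing in some of the labels and from germination in others.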

Additional observations from a re-analysis of the deposited data

Results flagged for a closer look

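By the limma test of the difference, the effect of nitrate supply differed between 16 and 25 d for 21 of the 42 genes in wild type. It differed for 30 in nrt1.13 and for 33 averaged over the genotypes. Of all genes tested, 17.6% passed in the negative and 15.5% in the positive direction in wild type. These shares were 15.9% and 13.3% in nrt1.13, and 25.4% and 21.7% averaged. The averaged differences on the log2 scale with the largest sizes were -1.5732 for LHCB1.4, -1.0461 for LHCB1.5, -0.824 for PSAE2, -0.8116 for PSBR and -0.8008 for PSAO. Among the genes that passed, LHCB1.1 had the positive difference, 0.7527.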

How the results depend on the processing

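Of 236 calls of single genes, 236 were kept with a pseudocount of 0.5 or of 1, with a mean CPM filter, with scaling over the genes outside the 42 and with a replicate block; 229 were kept by edgeR, 229 by limma without trend, 228 with median-ratio scaling, 227 with only the libraries compared, 215 with quantile normalization, 214 with no filter, 205 at an adjusted P of at most 0.01 and 31 by the study's criteria. With 1 library left out 5544 of 5664 were kept. PSBP1 turned direction under quantile normalization, with a nitrate effect by day of 0.0363 in nrt1.13 and of 0.0214 averaged; the cause was not tested.

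Counts of the 42 genes called moved by over 1.5 times as follows. By the study's criteria there were 0 for nitrate in wild type at 16 d (6 otherwise), 3 at 25 d (36), 0 in nrt1.13 at 16 d (1) and 3 at 25 d (34). For the day these criteria gave 2 in wild type at 2 mM (5), 9 at 0.2 mM (33), 1 in nrt1.13 at 2 mM (3) and 4 at 0.2 mM (32), for the genotype 0 at 2 mM and 16 d (1) and 0 averaged (1), and for nitrate by day 3 in wild type (21), 4 in nrt1.13 (30) and 2 averaged (33). No filter, which tests more genes, gave 1 for nitrate in wild type at 16 d, 0 in nrt1.13 at 16 d and 0 for the genotype at 2 mM and 16 d. An adjusted P of at most 0.01 gave 1 and 0 for nitrate at 16 d in wild type and nrt1.13, and 1 for the day in nrt1.13 at 2 mM. Only the libraries compared gave 2 for nitrate in nrt1.13 at 16 d, 10 and 13 for the day at 2 mM in wild type and nrt1.13, and 1 for the genotype at 2 mM and 25 d (0 otherwise). Quantile normalization gave 3 for nitrate in nrt1.13 at 16 d, 5 for the day in nrt1.13 at 2 mM and 2 for the genotype averaged. Median-ratio scaling gave 5 for the day in nrt1.13 at 2 mM, scaling outside the 42 gave 2 for the genotype averaged, and limma without trend gave 0 for nitrate in nrt1.13 at 16 d. Except where the construction is named, the cause was not tested.

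With each library left out, the counts for nitrate were 1 to 10 in wild type at 16 d, 33 to 36 at 25 d, 0 to 1 in nrt1.13 at 16 d and 32 to 38 at 25 d. For the day they were 4 to 8 and 31 to 34 in wild type at 2 and 0.2 mM, and 2 to 4 and 28 to 35 in nrt1.13. For the genotype they were 0 to 1 at 2 mM and 16 d, 0 to 1 at 0.2 mM and 25 d, and 1 to 3 averaged; for nitrate by day 20 to 26 in wild type, 25 to 33 in nrt1.13 and 32 to 33 averaged.

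Replicate numbers did not pair the plants: deviations of libraries with the same number had a median correlation of 0.025, those with other numbers 0.002, and 8 of 24 libraries correlated best with their own number. The replicate block gave 7 calls for nitrate in wild type at 16 d and 36 at 25 d. Scaling moved the median of all genes by less than 0.1 on the log2 scale in these comparisons.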
